A study of Mus musculus with 50 samples.

Results

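The 8 genes described here belong to Schwann cells, the glia of peripheral nerves, and to the myelin that these cells make: Mbp, Pmp22, Prx, Mag, S100b, Sox10, Ngfr and Gap43. They were taken from the tables by symbol, with earlier results of these data known, and they are 8 of the 23880 genes in the deposited tables, each with 1 row. Schwann cells wrap the large axons that enter a muscle in compact myelin, and they cover small axons and the nerve endings without myelin. In a healthy adult nerve the myelin genes are high and genes such as Ngfr and Gap43 are low, and after an axon is lost the Schwann cells switch the myelin genes off and take on a repair state in which Ngfr and Gap43 are high. In RNA of a whole muscle, transcripts from the nerve branches inside it are mixed with those of other cells, and fewer cells of a type and less RNA per cell cannot be told apart.

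RNA of the gastrocnemius, a mixed muscle of the calf, was sequenced in 50 male wild type C57BL/6JRj mice, with 1 library per mouse. The groups held 8 mice each for 8, 18, 22 and 24 months and 9 each for 26 and 28 months, and no mouse carried a transgene or received a drug. All mice ate the purified AIN-93M diet. The mice of 8 and 18 months were put on it some months before the end point, and the older ones stayed on it from about 18 months of age, so that diet history changed along with age between 18 and 22 months and the 2 cannot be told apart across that step. Animals with visible illness or tumors had been left out by the authors, which limits the oldest groups to survivors without overt disease. The libraries held 13607229 to 21267375 counts (median 16521368), and a gene with 3 counts stood at 0.141 to 0.22 CPM, which is the count scaled to library size. The CPM values carry TMM scaling factors, and TPM values, which are also scaled by transcript length, were used to set the levels of the 8 genes against each other. Sums of marker genes, and the most abundant gene of a marker list, are by CPM and so are not scaled by length.

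On the length-scaled unit the genes that build the compact sheath stood highest. The mean over the 50 mice was 57.4 TPM for Pmp22 and 34.8 TPM for Mbp. Prx followed at 5.98 TPM and S100b at 3.07 TPM. Sox10 (1.28 TPM), Mag (0.959 TPM) and Ngfr (0.595 TPM) were low, and Gap43 was the lowest at 0.26 TPM. A gene was tested if 8 or more mice reached 1 CPM, and 7 of the 8 genes met this. Gap43 reached 1 CPM in 0 of the 50 mice. Ngfr reached it in 24 mice, 15 of them younger than 28 months, so that it would have passed without the group in which it was highest.

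The label Schwann cell was checked on 12 other markers of these cells, of which 10 were in the tables and all 10 passed the filter. Their summed level lay between 41.8 and 174 CPM in the mice of 8 months and between 46.3 and 158 CPM in those of 28 months. Between these ages edgeR called 0 of the 10, where 39.6% of all 12586 genes tested were called. The median log2 fold change of the 10 was -0.16, and 2 had p below 0.05 in edgeR's test before adjustment. DESeq2 and limma called 0 of the 10. Mbp, Mag and Sox10 are also genes of oligodendrocytes, the myelin cells of the brain and spinal cord. The 7 oligodendrocyte markers summed to at most 0.398 CPM at 8 months and 0.621 CPM at 28 months, the transcription factor Myrf being the highest of them at a mean of 0.109 CPM, and Mog had no count in any mouse of 28 months. Sox10 is found in pigment cells as well. Of 6 melanocyte markers only Mitf passed the filter, a factor that other cells also make, while the pigment enzyme Dct had a mean of 0.396 CPM and Tyrp1 of 0.061 CPM.

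Positions are on the mouse genome build GRCm38. Pmp22 (chr11:63128982-63159547, plus strand) and Ngfr (chr11:95568818-95587735, minus strand) share a chromosome, and so do Prx (chr7:27499324-27520214, plus strand) and Mag (chr7:30899176-30914873, minus strand). S100b is at chr10:76253853-76261159 on the plus strand, Sox10 at chr15:79154908-79165240 on the minus strand and Gap43 at chr16:42248442-42340651 on the minus strand. RefSeq promoter windows, which run from 250 bases before to 50 bases after a start site on GRCm38.p6, were at hand for 5 of the 8 genes. Shown are the stretches from 250 to 51 bases before the start of the 2 genes that changed most with age, Ngfr (minus strand, chr11:95587749-95587948) and S100b (plus strand, chr10:76253586-76253785), and of Prx (plus strand, chr7:27499074-27499273), a sheath gene with a motif match, which is in capitals.
Ngfr: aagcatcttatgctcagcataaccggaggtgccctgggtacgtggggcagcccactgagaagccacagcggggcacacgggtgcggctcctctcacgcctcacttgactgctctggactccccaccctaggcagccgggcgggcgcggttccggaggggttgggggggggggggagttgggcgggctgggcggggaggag
S100b: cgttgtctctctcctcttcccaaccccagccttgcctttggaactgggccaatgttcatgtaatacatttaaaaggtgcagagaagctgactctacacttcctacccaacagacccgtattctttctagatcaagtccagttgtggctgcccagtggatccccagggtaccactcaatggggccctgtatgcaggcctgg
Prx: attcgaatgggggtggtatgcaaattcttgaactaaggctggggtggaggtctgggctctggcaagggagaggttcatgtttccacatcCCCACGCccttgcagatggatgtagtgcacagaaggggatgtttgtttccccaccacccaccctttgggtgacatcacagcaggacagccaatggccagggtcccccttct

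The windows were searched on both strands for ACAAAG and AACAAT, letters bound by SOX factors such as the Sox10 protein, and for GCGTGGG, letters bound by EGR factors such as Egr2, each motif being counted on its own. The capitals in Prx are the reverse strand of GCGTGGG. That motif occurred in 5.04% of 32851 promoter windows of the same length, ACAAAG in 18.7% and AACAAT in 10.7%. Mag had 1 ACAAAG in 2 of its 3 windows, and because these 2 windows largely overlap, it may be 1 site. No window of Pmp22, Ngfr or S100b held any of the 3 motifs. The Ngfr window had a GC content of 71.7%, that of S100b 53.7% and that of Prx 56.7%, where the median over all windows was 52.7%.

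**Figure D1:**
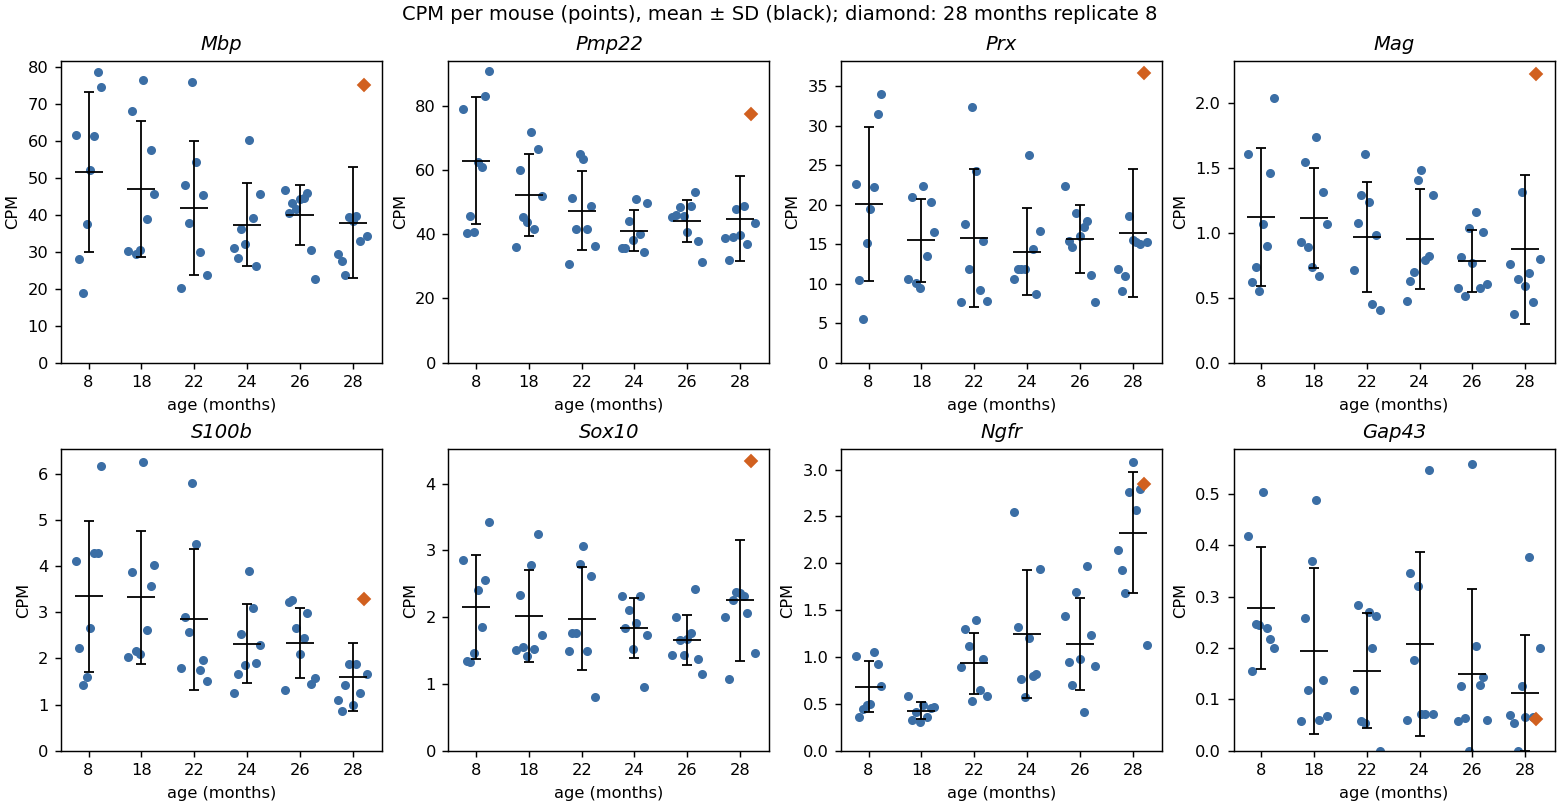
Level of each of the 8 genes in CPM (vertical axis, starting at 0) in every mouse against age in months (horizontal axis, ages evenly spaced). Points are mice, black bars the mean ± SD, cut off at 0, and the orange diamond is replicate 8 of 28 months. Ngfr in the 9 mice of 28 months lies between 1.13 and 3.08 CPM, above all 8 mice of 8 months.

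The first question was which of these genes differ at any age. With edgeR's quasi-likelihood F test over the 6 ages, 1 of the 7 genes tested was called at a false discovery rate (FDR) below 0.01, against 35.4% of all 12586 genes. That gene was Ngfr (FDR = 3.09e-08). S100b (FDR = 0.0165) and Pmp22 (FDR = 0.0169) missed the threshold in edgeR's test, and the other 4 had an FDR from 0.458 to 0.684. DESeq2's likelihood ratio test called all 3 of them.

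Between the youngest and the oldest mice, 2 of the 7 genes changed, 1 up and 1 down. This is 28.6% of the 7, where 39.6% of all genes tested were called, 21.0% higher and 18.7% lower at 28 months. Ngfr rose and S100b fell. The median log2 fold change of the 7 was -0.36, next to 0.007 over all genes tested, and 5 of the 7 values were below 0.

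Ngfr encodes p75NTR, a receptor for neurotrophins that Schwann cells show when they have lost contact with an axon, and that some connective tissue and muscle precursor cells make as well. In the 8 mice of 8 months it stood at 0.361 CPM in the lowest, 0.6 CPM in the median and 1.05 CPM in the highest. In the 9 mice of 28 months the lowest was 1.13 CPM, the median 2.57 CPM and the highest 3.08 CPM. The 2 ages did not overlap, and all 9 old mice were above all 8 young ones. Some marker genes of other cells also separated these ages fully, and how many of all genes do so was not counted. The means were 0.684 ± 0.274 CPM (SD, n = 8) and 2.33 ± 0.646 CPM (SD, n = 9), a 3.36-fold difference (log2 1.75, SE 0.26, edgeR FDR = 8.95e-07). These values rest on 7 to 22 counts per mouse at 8 months and 17 to 47 at 28 months.

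The ages between did not form an even ramp. Ngfr was lowest at 18 months, with a median of 0.436 CPM and a range from 0.308 to 0.582 CPM, and 2 of those 8 mice were below every mouse of 8 months. The ages in the middle overlapped with 8 months. At 22 months the range was 0.536 to 1.4 CPM (median 0.937 CPM), at 24 months 0.575 to 2.55 CPM (median 1.01 CPM) and at 26 months 0.408 to 1.97 CPM (median 0.976 CPM). In the order of their means the ages ran 18 months (0.426 CPM), 8 months (0.684 CPM), 22 months (0.933 CPM), 26 months (1.14 CPM), 24 months (1.25 CPM) and 28 months (2.33 CPM). The step from 18 to 22 months, across which the diet schedule also changed, had a log2 fold change of 1.11 (SE 0.31) and did not pass in edgeR's test over all genes (unadjusted p = 7.58e-04, FDR = 0.81). Between 22 and 26 months the levels lay within 1 SD of each other, and the step from 26 to 28 months had a log2 fold change of 1.02 (SE 0.24). It did not pass in edgeR's test over all genes (unadjusted p = 9.88e-05, FDR = 0.14).

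S100b encodes a calcium-binding protein by which Schwann cells are often recognised, although fat cells contain it too. At 8 months the lowest mouse had 1.43 CPM, the median was 3.38 CPM and the highest 6.17 CPM. At 28 months these were 0.859, 1.42 and 3.29 CPM. The groups overlapped, and 5 of the 9 old mice were below every young mouse. The mean fell from 3.34 ± 1.64 CPM (SD, n = 8) to 1.59 ± 0.735 CPM (SD, n = 9), 2.1-fold lower (log2 -1.07, SE 0.29, edgeR FDR = 0.0021). Counts per mouse were 26 to 124 at 8 months and 15 to 53 at 28 months. One young mouse, replicate 8, carried 6.17 CPM, and without it the log2 fold change was -0.88 with an edgeR FDR of 0.0107, which misses the threshold. The means at the ages between were 3.32 CPM at 18 months, 2.84 CPM at 22, 2.31 CPM at 24 and 2.33 CPM at 26 months, in that order of age.

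**Figure D2:**
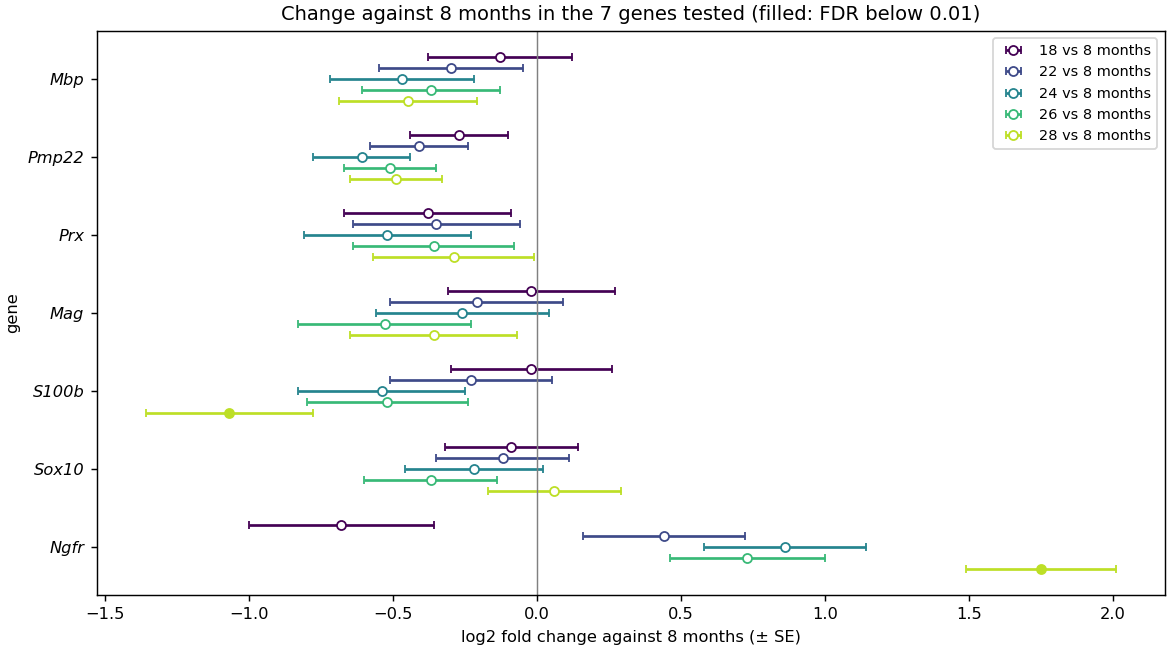
Log2 fold change against 8 months (horizontal axis, bars ± SE) for the 7 genes tested (vertical axis) at each of the 5 older ages (colors). Filled points have an edgeR FDR below 0.01, and these are Ngfr (1.75) and S100b (-1.07) at 28 months. The sheath genes Mbp, Pmp22, Prx and Mag lie below 0 at every age without passing. All 5 comparisons share the mice of 8 months, so these values are not separate observations.

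None of the sheath genes Pmp22, Mbp, Prx and Mag passed in edgeR's test between 28 and 8 months, with unadjusted p below 0.05 for Pmp22 alone. Pmp22, a membrane protein of compact myelin whose gene dosage is altered in inherited neuropathies, ranged from 40.4 to 90.9 CPM at 8 months with a median of 61.7 CPM, and from 32.1 to 77.4 CPM at 28 months with a median of 39.6 CPM. The groups overlapped, with 5 of 9 old mice below all young ones. The difference came to a log2 fold change of -0.49 (SE 0.16), and its edgeR FDR of 0.0101 fell just short of the threshold. The gene passed without replicate 8 of 28 months (log2 -0.62, FDR = 8.78e-04), and also without replicate 2, 3 or 4 of 8 months (FDR = 0.00364, 0.00587 and 0.00396). In the other 13 of 17 fits with a mouse left out it did not pass, with an edgeR FDR of up to 0.0389. DESeq2 called it with all mice (log2 -0.48, FDR = 0.00749), and so did edgeR with upper-quartile factors (FDR = 0.00666). Under 5 of the 7 other settings it did not pass, among them limma (log2 -0.37, FDR = 0.0606) and edgeR on 8 and 28 months alone (FDR = 0.0408). At 24 months Pmp22 ranged from 34.3 to 50.9 CPM (log2 -0.61 against 8 months, SE 0.17, edgeR FDR = 0.0313).

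Mbp, the cytoplasmic protein that holds the layers of myelin together, had a range from 18.8 to 78.6 CPM at 8 months (median 56.7 CPM) and from 23.8 to 75.1 CPM at 28 months (median 34.2 CPM). The young mice alone covered a 4.18-fold range, and every old mouse was inside it. The log2 fold change was -0.45 (SE 0.24, edgeR FDR = 0.118), with a 95% interval from -0.92 to 0.03. Prx encodes periaxin, which ties the outside of the sheath to the surrounding matrix. It varied even more, from 5.56 to 34 CPM at 8 months and from 9.02 to 36.6 CPM at 28 months, and its log2 fold change was -0.29 (SE 0.28, interval -0.84 to 0.26, edgeR FDR = 0.395). Mag, the adhesion protein on the side of the sheath that faces the axon, was found at 0.551 to 2.04 CPM at 8 months and 0.376 to 2.23 CPM at 28 months. Its log2 fold change was -0.36 (SE 0.29, interval -0.94 to 0.21, edgeR FDR = 0.303), on 7 to 41 counts per mouse at these 2 ages.

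Sox10, the transcription factor that gives Schwann cells their identity and is needed for the myelin program, kept nearly the same mean. It was 2.15 ± 0.778 CPM (SD, n = 8) at 8 months and 2.25 ± 0.901 CPM (SD, n = 9) at 28 months, with ranges from 1.33 to 3.43 CPM and from 1.07 to 4.34 CPM. The log2 fold change was 0.06 (SE 0.23, edgeR FDR = 0.829), and its 95% interval, from -0.38 to 0.5, leaves room for a moderate change in either direction. The sign was not stable: without replicate 8 of 28 months it was -0.12.

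Gap43, a growth cone protein of regrowing axons that repair Schwann cells also make, was at the limit of detection. The mice of 8 months had 3 to 8 counts each and those of 28 months 0 to 6, and 31 of the 50 mice had 3 counts or fewer. At 28 months 8 of the 9 mice were at or under 3 counts, against 1 of 8 at 8 months. In a fit without the filter on low genes, the difference had an edgeR FDR of 0.0677, and no fold change is given because the old group is at the floor.

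None of the 7 genes tested was called by edgeR at an earlier age. Against 8 months, 0 of the 7 passed at 18 months (0.0715% of all genes tested did), 0 at 22 months (0.0397%), 0 at 24 months (0.612%) and 0 at 26 months (18.4%). These counts are from edgeR. Before adjustment, Pmp22 had p below 0.05 at 22, 24 and 26 months and Ngfr at 18, 24 and 26 months, 1 or 2 of the 7 genes at each age, and DESeq2 called Pmp22 at 26 months (FDR = 0.0082) where limma called 0 at any of these ages. At 26 months, where many genes were called, Pmp22 was nearest to the threshold (log2 -0.51, SE 0.16, edgeR FDR = 0.0128), and Ngfr had a log2 fold change of 0.73 (SE 0.27, edgeR FDR = 0.0348). From one age to the next 0 of the 7 passed in any step, in which the share of all genes was 0.00795% from 18 to 22 months and 0.0% from 22 to 24, 0.0% from 24 to 26 and 0.0% from 26 to 28 months. Of the 28 values over these 4 steps, 2 had p below 0.05 before adjustment, both of Ngfr, and with DESeq2 or limma 0 passed as well.

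The mice of 22 and 28 months started the diet at the same age, and so their comparison does not span the change in schedule. The older mice had still been on the diet for longer, and time on it and age cannot be told apart here. Ngfr was called between them, with all 9 mice of 28 months above the median of 22 months. Its mean was 0.933 ± 0.329 CPM (SD, n = 8) at 22 months, and the log2 fold change to 28 months was 1.31 (SE 0.25, edgeR FDR = 9.78e-05). This made 1 of 7 genes, 14.3%, where 27.7% of all genes tested were called, 16.2% higher and 11.5% lower. S100b had a log2 fold change of -0.84 (SE 0.3) and did not pass (edgeR FDR = 0.02), and Pmp22 was at -0.08 (SE 0.16, edgeR FDR = 0.721). These comparisons share mice with the ones against 8 months and are not separate evidence.

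Within one age, the sheath genes varied together from mouse to mouse. The mean of its age was subtracted from the log2 CPM of each mouse, and Pearson's r was computed over the 50 mice for the 28 pairs of genes, with 100000 permutations of mice within ages (two-sided) and Benjamini-Hochberg adjustment over the 28 pairs. The 15 pairs among Mbp, Pmp22, Prx, Mag, S100b and Sox10 had r from 0.62 to 0.97 (median 0.76) and Spearman's rho from 0.55 to 0.97. In the permutation test all 15 had an adjusted p between 2e-05 and 7.47e-05, the former being the adjusted value of the smallest p that the permutations can give, and r stayed between 0.54 and 0.96 when the 2 mice farthest from the median of the first gene were left out. The tightest pair was Mbp and Prx (r = 0.97), and within the single ages its r lay between 0.94 and 0.99. The pairs with the low gene Mag spread most, down to r = -0.28 with Sox10 at 24 months, so that its relations did not hold at every age. At 26 months the r of Mag with the other 5 lay between -0.09 and 0.06. Pairs without Mag also weakened at single ages. At 24 months the r of Sox10 ran from 0.15 with S100b to 0.4 with Mbp, and at 26 months that of Prx with S100b was 0.28.

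The pairs of Ngfr and Gap43 had lower r over the 50 mice. Over the 7 pairs of Ngfr, r ranged from -0.11 to 0.37, and 2 of them had an adjusted p below 0.05 in the permutation test, Ngfr with Sox10 (r = 0.37, rho = 0.35, adjusted p = 0.0162, r without the 2 farthest mice 0.33) and with Prx (r = 0.33, rho = 0.42, adjusted p = 0.0428, r without them 0.28). Within the single ages the r of Ngfr with Sox10 ran from 0.08 to 0.64 and that with Prx from 0.09 to 0.71. In the 8 mice of 8 months, the r of Ngfr with the 6 genes lay between 0.64 and 0.79. The other ages were lower, with -0.02 to 0.24 at 18 months and 0.17 to 0.43 at 22 months. At 24 months these r ran from -0.36 to 0.34, at 26 months from -0.25 to 0.23 and at 28 months from 0.13 to 0.58. The r within single ages were not tested. By Spearman's rho the pair of Ngfr and Mbp passed too (rho = 0.38, adjusted p = 0.0133). The 7 pairs of Gap43 had r from -0.11 to 0.18 with adjusted p of 0.308 or more, for a gene of 0 to 8 counts.

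**Figure D3:**
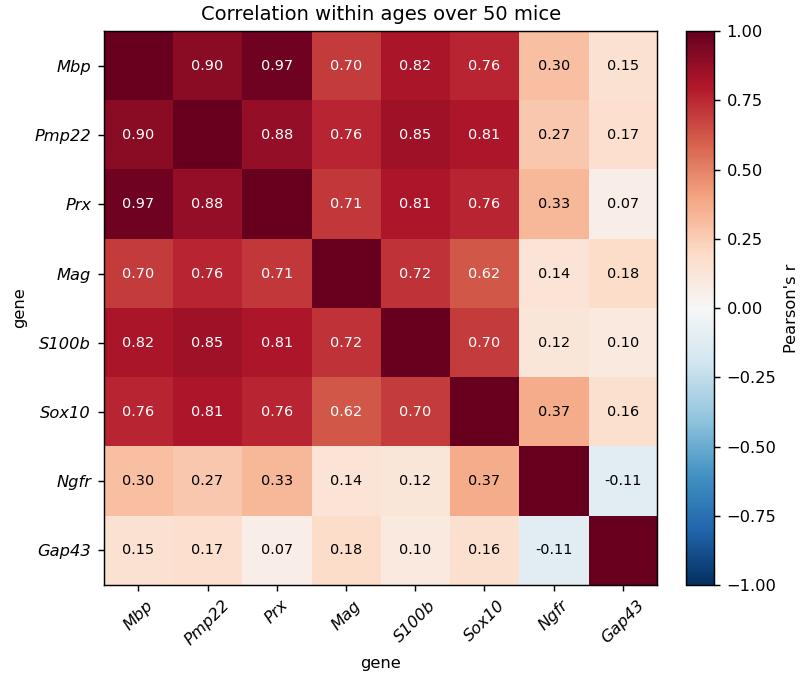
Pearson's r between each pair of the 8 genes over 50 mice after subtraction of age means (log2 CPM), with red for positive and blue for negative values and r printed in each cell. The 6 genes at the upper left correlate at 0.62 to 0.97, whereas the rows of Ngfr and Gap43 stay between -0.11 and 0.37.

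The genes most like each of the 8 were looked for by the same r over all genes tested. Among the 3 nearest to Mbp were Prx (r = 0.97) and Mal, a lipid raft protein of myelin (0.94), and among those nearest to Prx were Mbp and Mal (0.92). Pmp22 had Mbp (0.9) and Prx (0.88) among its 3, S100b had Pmp22 (0.85) and Mbp (0.82), and Sox10 had Pmp22 (0.81) and Gatm (0.79). The nearest to Mag was Aatk (r = 0.77), followed by Pmp22 (0.76) and Ndrg1 (0.74). Ngfr had weaker matches, which were Pcgf3 (r = 0.56), Rb1 (0.52) and Gt(ROSA)26Sor (0.52). For Gap43 they were Nsg1 (0.54), Thbs2 (0.54) and Colec12 (0.53). These are descriptions over 50 mice without a test.

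Single mice were extreme in many of the genes at once. Replicate 8 of 28 months was the highest of its age in 6 of the 8 genes, with 75.1 CPM of Mbp, 77.4 CPM of Pmp22 and 4.34 CPM of Sox10, and replicate 2 of that age was the lowest in 5. At 8 months replicate 8 was the highest in 5 genes, and replicates 2 and 3 were the lowest in 3 and 4. Likewise, replicate 5 of 18 months led in 6 genes, replicate 4 of 22 months in 5 and replicate 5 of 24 months in 5. How much nerve each piece of muscle contained was not tested.

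Other genes of the same cells were read from 7 lists, between 28 and 8 months unless other ages are named. Between 28 and 8 months 39.6% of all genes tested were called. Of 17 other myelin sheath proteins 15 were tested and 0 passed, with a median log2 fold change of -0.36 and 5 of 15 above 0. Cd9, a tetraspanin, came nearest (log2 -0.34, SE 0.11, edgeR FDR = 0.0115). Of 5 genes of myelin lipid synthesis 4 were tested and 0 passed (median -0.39), and of 15 regulators of Schwann cell fate and myelination 10 were tested and 0 passed (median 0.11). Egr2, the master regulator of myelination, had 2.14 ± 0.591 CPM (SD, n = 8) and 1.49 ± 0.674 CPM (SD, n = 9), with a log2 fold change of -0.52 (SE 0.22, edgeR FDR = 0.0455). For the neuregulin pathway, by which axons tell Schwann cells how much myelin to make, 4 of 8 genes were tested and 0 passed (median 0.17). Before adjustment, p was below 0.05 for 7 of the sheath proteins, 2 of the lipid genes, 4 of the regulators and 1 of the neuregulin genes. DESeq2 called Cd9 alone and limma, on log2(TPM + 1), Adgrg6 alone in these 4 lists, both named after their values were seen.

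Genes of non-myelinating and immature Schwann cells gave 3 calls among 5 of 10 genes tested, with a median of 0.41, beside 39.6% of all genes. Ncam1, an adhesion molecule of these cells that muscle fibres also make when they lose their nerve, rose from 6.48 ± 1.25 CPM (SD, n = 8) to 9.4 ± 1.3 CPM (SD, n = 9; log2 0.54, SE 0.14, edgeR FDR = 0.00118). Scn7a, a sodium channel of non-myelinating cells, rose from 16 ± 4.28 CPM (SD, n = 8) to 22.9 ± 5.96 CPM (SD, n = 9; log2 0.51, SE 0.13, edgeR FDR = 0.00136). Cdh2, which encodes N-cadherin, fell from 1.79 ± 0.5 CPM (SD, n = 8) to 1.09 ± 0.342 CPM (SD, n = 9; log2 -0.72, SE 0.19, edgeR FDR = 0.00149).

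Of 14 repair Schwann cell genes 7 were tested, 1 rose and 0 fell, with a median of -0.11. The one that rose was Gdnf, a survival factor for motor neurons that muscle also makes, named here after its values were seen because its mean of 0.784 CPM kept it out of the naming rule. It went from 0.0475 to 0.504 CPM at 8 months to 0.387 to 4.76 CPM at 28 months. Of the old mice, 8 of 9 were above all young ones (log2 2.42, SE 0.39, edgeR FDR = 2.51e-06). The mean of Gdnf at 8 months was 0.324 CPM, and the lowest young mouse lay under the floor of 0.141 to 0.22 CPM. The size of the rise is therefore uncertain. Whether Gdnf would pass the filter without the mice of 28 months was not tested. Bdnf (log2 0.58, SE 0.36, edgeR FDR = 0.175) and Runx2 (log2 0.46, SE 0.24, edgeR FDR = 0.106) did not pass. The other 4 had values below 0 and did not pass either, with Stmn2 at -0.5 (SE 0.18, edgeR FDR = 0.0183), Tnc at -0.22, Atf3 at -0.15 and Ccl2 at -0.11. Jun, a factor that drives the repair state, was not analysed here.

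Of 12 genes of neurotrophins, their receptors and partners of p75NTR, 9 were tested, 4 fell and 1 rose, where 18.7% of all genes fell and 21.0% rose. The median was -0.23, and 4 of the 9 values were above 0. Between 28 and 22 months 1 of the 9 was lower and 0 higher, where 11.5% of all genes tested were lower and 16.2% higher. Between the same 2 ages the regulators gave 1 higher and 1 lower, and the non-myelinating and immature genes 2 higher. The repair and the neuregulin lists gave 1 higher each, and the sheath and lipid lists 0. Ntf5, the neurotrophin-4 gene, fell from 4.26 ± 0.889 CPM (SD, n = 8) to 1.89 ± 1.39 CPM (SD, n = 9; log2 -1.17, SE 0.25, edgeR FDR = 1.69e-04). Ntf3, neurotrophin-3, fell from 1.75 ± 0.503 CPM (SD, n = 8) to 1.03 ± 0.408 CPM (SD, n = 9; log2 -0.76, SE 0.22, edgeR FDR = 0.00295), and Bex3, which encodes a protein that binds the inside of the receptor, had a log2 fold change of -0.7 (SE 0.2, edgeR FDR = 0.0029). The receptor gene Ntrk2 (log2 -0.57, SE 0.14, edgeR FDR = 7.92e-04) fell too, and the co-receptor gene Sort1 (log2 0.4, SE 0.13, edgeR FDR = 0.00664) rose. Sort1 and Ntrk2 have transcripts in muscle fibres and vessels as well, and which cells the values came from was not tested.

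**Figure D4:**
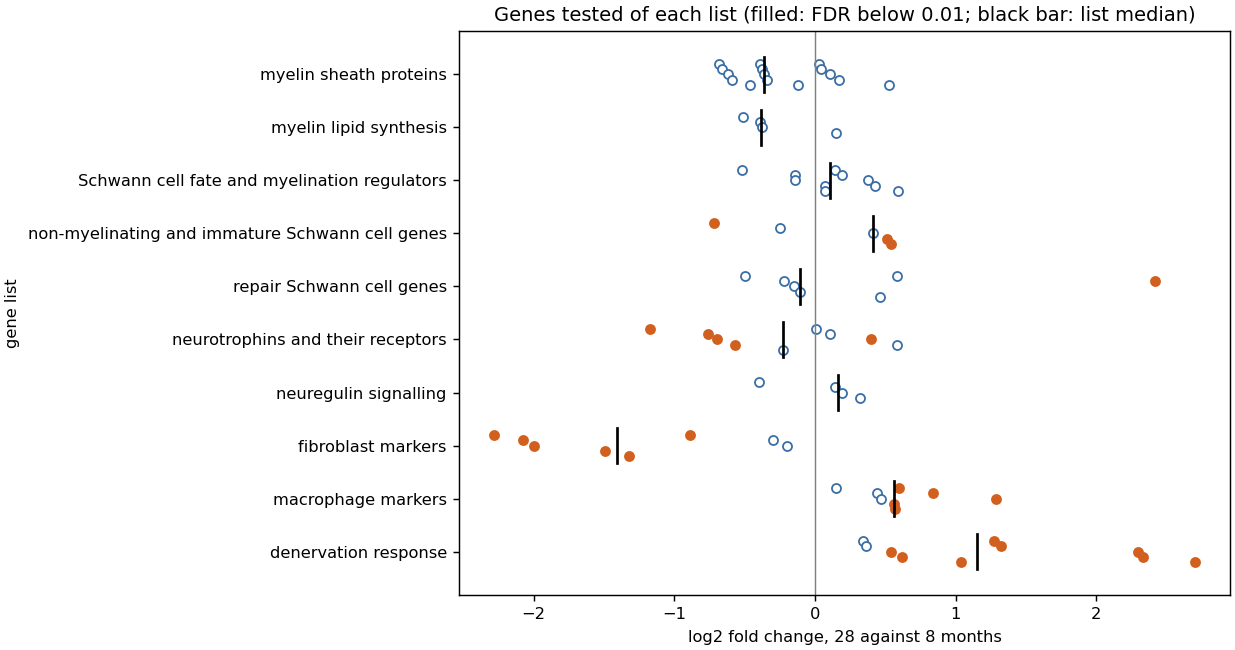
Log2 fold change between 28 and 8 months (horizontal axis) of the genes tested in 7 Schwann cell lists and 3 marker lists (vertical axis). Points are genes, filled where the edgeR FDR is below 0.01, and black bars are list medians. No gene of the myelin protein, myelin lipid, regulator and neuregulin lists is filled, and the list medians are lowest for fibroblast markers (-1.41) and highest for the denervation response (1.16).

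Markers of other cells were compared between the same 2 ages, where 21.0% of all genes rose and 18.7% fell. Genes that muscle fibres switch on after loss of their nerve rose in 8 of 10 tested (median 1.16), Ncam1 being in this list too, and their summed level was 366 to 621 CPM at 8 months and 628 to 1120 CPM at 28 months. Myh8 had the highest mean of them (log2 0.34, SE 0.17, edgeR FDR = 0.0798). Fibroblast markers fell in 6 of 8 (sum 1200 to 1730 CPM, then 713 to 1060 CPM), with Dcn as the most abundant (log2 -0.2, SE 0.09, edgeR FDR = 0.0467), and macrophage markers rose in 5 of 8 (sum 98.7 to 174 CPM, then 145 to 352 CPM), among them Cd163 (log2 1.29, SE 0.22, edgeR FDR = 9.75e-06). Among 6 adipocyte markers 3 fell and 1 rose, the latter being Plin4, which muscle fibres express too (log2 1.24, SE 0.23, edgeR FDR = 2.2e-05). Satellite cell markers gave 1 rise and 1 fall among 5 tested, with Sdc4 as the most abundant (log2 0.55, SE 0.24, edgeR FDR = 0.0515).

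The sheath around nerve bundles, judged by 6 perineurial and endoneurial markers tested, gave 1 rise, that of the glucose transporter Slc2a1 (log2 0.46, SE 0.15, edgeR FDR = 0.00881), which muscle fibres also contain. It was the only 1 of the 6 above 0, the median being -0.18, and Wif1 had a value of -1.03 (edgeR FDR = 0.0183). DESeq2 called Slc2a1 too, and limma called 0 of the 6. Of 10 axon and motor neuron markers only Uchl1 could be tested (log2 0.31, SE 0.2, edgeR FDR = 0.19), so that nerve content could not be followed by axon genes. Endothelial markers gave 1 fall among 7, with Pecam1 at a log2 fold change of 0.17 (SE 0.1, edgeR FDR = 0.157), and muscle fibre markers 2 rises among 10, with Myh4 at 0.28 (SE 0.15, edgeR FDR = 0.107). Mitf rose as well (log2 0.4, SE 0.1, edgeR FDR = 0.00103). The part of these cells in the values of Ngfr and S100b was not tested.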

How the data were processed

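RNA of 50 gastrocnemius samples was analysed from 2 tables of 23880 genes. According to the study's methods, the authors trimmed reads with Cutadapt 1.9.1 and assigned them with kallisto 0.43.1, using read strand, to Ensembl protein-coding transcripts of GRCm38 (versions per the submitters' processing notes). The counts, as deposited by the authors, are sums over the transcripts of a gene, a read that matched several transcripts being split evenly among them, so that similar gene copies carry added uncertainty. The values are whole numbers, and how fractions were rounded is not given in the sources used here, which matters most for genes with few counts such as Gap43. The TPM values, as deposited by the authors, are also scaled by transcript length and library size.

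Ages and replicate numbers came from the sample labels. Counts were fitted with edgeR 4.0.16 in R 4.3.3 (TMM, quasi-likelihood, 1 fit over 6 ages, 12586 genes that reached 1 CPM in 8 or more mice, FDR 0.01 after Benjamini-Hochberg adjustment). The SE was taken as the absolute log2 fold change over the square root of F, and 95% intervals used the normal approximation. Alternatives were limma 3.58.1 on log2(TPM + 1) and DESeq2 1.42.0, beside other scaling factors, no filter, a fit on 2 ages, a replicate block and each mouse left out. Correlations used log2 CPM with a prior count of 0.5, with scipy 1.17.1, pandas 2.3.3 and numpy 2.4.6 under Python 3.11.15. In 184 pairs of libraries of the same age, the variance of the difference was at least 2.38 times that of counting, so none counted as a copy of another. Depth was 13607229 to 21267375 counts per mouse, and the floor of 3 counts covers counting error only.

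The 8 genes, the lists and the naming rule were chosen with earlier results of these data known, and the lists were written from general knowledge. Named genes were the 8, the 3 largest changes past FDR 0.01 of each Schwann cell list (mean of at least 1 CPM), the most abundant gene of each marker list, and the 3 genes most correlated with each of the 8. Some genes that the rule names, and the results that need them, are not reported here. Cd9, Egr2, Bdnf, Runx2, Ntrk2, Sort1, Gdnf, Stmn2, Tnc, Atf3, Ccl2 and Adgrg6, and the markers Wif1, Mog, Dct and Tyrp1, were named outside this rule after their values were seen. Gene positions came from GENCODE vM21 and promoters from RefSeq.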

Additional observations from a re-analysis of the deposited data

Results flagged for a closer look

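In 9 of 48 groups (8 genes at 6 ages), the highest mouse stood apart from the others of its age by Dixon's criterion. Chance meets it in about 1 in 20 groups if values are normally distributed, which was not tested for these CPM values. Because several of the genes vary together, the 48 groups are not separate, and the 9 cannot be set against that rate. Replicate 8 of 28 months accounted for 6 of the 9, with Mbp at 75.1 CPM (next mouse 39.8 CPM), Pmp22 at 77.4 CPM (48.9 CPM), Prx at 36.6 CPM (18.5 CPM), Mag at 2.23 CPM (1.32 CPM), S100b at 3.29 CPM (1.88 CPM) and Sox10 at 4.34 CPM (2.38 CPM). These 6 values come from 1 library and are not separate observations. In the same mouse Ngfr was 2.85 CPM, inside the range of its age. The others were Prx in replicate 5 of 24 months at 26.3 CPM (next mouse 16.7 CPM), S100b in replicate 5 of 18 months at 6.26 CPM (4.02 CPM) and Gap43 in replicate 5 of 26 months at 0.558 CPM (0.204 CPM), the last on 8 counts. How much nerve these muscle pieces held was not tested.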

How the results depend on the processing

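Ngfr between 28 and 8 months stayed past FDR 0.01 under all 7 other settings (log2 fold change 0.72 to 1.82, the lowest on the log2(TPM + 1) scale, which understates low genes) and without each of 17 mice (1.65 to 1.87). For S100b the 7 settings gave -1.12 to -0.69, all past the threshold, and leaving out a mouse gave -1.28 to -0.88. The number of the genes called between these ages was 2 or 3 under the 7 settings and 1 to 3 with a mouse left out. It was 1 without replicate 8 of 8 months, which ended the call of S100b, and 3 where Pmp22 was added (upper-quartile factors, FDR = 0.00666, and DESeq2, FDR = 0.00749). DESeq2 called 3 genes for any age difference in place of 1, and 1 gene, Pmp22, in place of 0 at 18 to 26 months against 8 months. The cause was not tested. Sox10 changed sign without replicate 2 (-0.01) or 3 (-0.02) of 8 months and without replicate 8 of 28 months (-0.12), within a range of -0.12 to 0.2 when a mouse was left out. Of all genes called between 28 and 8 months, 52.9% were higher, or 44.9% with upper-quartile factors and 61.4% with limma. Correlated pairs numbered 17, or 15 without the mice of 28 months and 18 on log2(TPM + 1). Mag was not tested in the fit on 8 and 28 months alone, where it missed the filter.

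With the replicate number as a block, the genes called were 2 between 28 and 8 months, as without it, and no call changed. Mice with the same number did not deviate together (mean r 0.032, range -0.543 to 0.372), and 9 of 50 correlated best with their own number, so that the numbers do not pair the mice. Counts under about 20 per mouse limit Ngfr, Mag and Gap43. Such counts also occur in some mice for S100b at 28 months (15 to 53 counts). For Sox10 they occur at 22 months (14 to 57 counts), 24 months (14 to 39 counts) and 26 months (19 to 38 counts).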
